A study of Caenorhabditis elegans with 33 samples.

Results

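A microRNA is cut from a hairpin precursor as a duplex of its 5p and 3p arms, and an Argonaute protein usually keeps the arm that becomes the guide while the other arm is removed. The removed arm is therefore the rarer of the pair in most small RNA libraries, and its amount relative to the guide depends on how strands are chosen, held and broken down. In Caenorhabditis elegans, ALG-1 and ALG-2 are the broadly expressed Argonautes that carry microRNAs, and ALG-5 is a related protein of the same branch. The minor arms of the hairpins were taken here as 1 set. Among 368 mature miRNA names, 150 hairpins had both a 5p and a 3p entry. The arm with fewer RPM (reads scaled to the size of the library) in the wild type L4 library was called minor, and the 100 hairpins whose major arm reached 10 RPM there were kept, giving 100 minor arms, of which 66 are 5p and 34 are 3p. The remaining 50 hairpins and the 68 names without an arm pair were not members.

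Small RNA of 18 to 28 nt was sequenced from whole worms grown at a single temperature, in 18 libraries of 1 sample each. Mutant libraries came from adults (68 h after L1 synchronisation) of 3 genotypes, alg-1(gk214), alg-2(ok304) or else alg-5(tm1163), and from late L4 larvae (49 h) of alg-5(ram2). Immunoprecipitates and their inputs came from adult lines that carry a tagged transgene in a mutant of the Argonaute it names first: HA::ALG-1 and ALG-1::HA::ALG-2 in alg-1(gk214), HA::ALG-2 in alg-2(ok304) and HA::ALG-5 in alg-5(tm1163). GFP::ALG-5 was taken from L4 larvae in which the alg-5 locus itself carries GFP and 3xFLAG. No immunoprecipitate from untagged worms was analysed here, so enrichment is against input only. By its name ALG-1::HA::ALG-2 joins an alg-1 part to HA-tagged alg-2, in animals that carry alg-1(gk214) and keep their own alg-2. Wild type N2 gave 3 adult libraries and 1 L4 library. The column headers number the libraries by experiment: experiment 1 holds the ALG-1 and ALG-2 lines and wild type adult 1, experiment 2 alg-1(gk214), alg-2(ok304) and wild type adult 2, experiment 3 alg-5(tm1163), the HA::ALG-5 line and wild type adult 3, and experiment 4 the L4 libraries.

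Depth ran from 1622092 reads in wild type adult 2 to 24518714 reads in the GFP::ALG-5 input. The libraries of experiment 2 stood apart from the other adults, wild type included. Here let-7-5p, the guide that times the larva to adult transition, was at 36.8 RPM in alg-1(gk214) and 37.8 RPM in alg-2(ok304), against 30.2 RPM in wild type adult 2, while wild type adults 1 and 3 had 321 and 535 RPM. The mir-35 family, an embryonic and germline marker, also differed with genotype there: its 3p guides summed to 6258 RPM in alg-1(gk214) and 3287 RPM in alg-2(ok304), against 29496 RPM in wild type adult 2. In whole animals, fewer embryos or germ cells and less RNA per cell cannot be told apart, and the part of either in the arm ratios was not tested. Each mutant is given below first against the wild type library of its own experiment. The mRNA libraries, from animals 53 h after L1 for alg-1(gk214) and 49 h for the others, check the labels: alg-1 was at 10.7 to 16.3 FPKM (fragments scaled to transcript length and library size) in alg-1(gk214) against 28.9 to 32.7 FPKM in wild type, and alg-2 at 1.94 to 2.15 FPKM in alg-2(ok304) against 13.3 to 17.2 FPKM in wild type. The alg-5 transcript was at 0.557 to 0.996 FPKM in alg-5(ram2) and 9.11 to 11.8 FPKM in alg-5(tm1163), against 8.03 to 10.3 FPKM in wild type, so total alg-5 mRNA does not mark the tm1163 allele.

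In the wild type L4 library, which chose the members, the minor arms were a median of 1.58% of their major arms, with quartiles of 0.395% and 5.15%. These values describe the choice and carry no test. In that library 41 minor arms were under 1% of the major arm, 39 lay between 1% and 10%, and 20 were at 10% or more. By level, 10 had at least 100 RPM, 36 had 10 to 100 RPM, 36 had 1 to 10 RPM, 14 were under 1 RPM and 4 were at 0. The highest was miR-58-5p at 825 RPM, partner of miR-58-3p in the bantam-related mir-58 family, followed by lin-4-3p at 709.6 RPM, partner of the larval timing miRNA lin-4. Then came miR-5592-5p at 366 RPM, miR-80-5p at 296 RPM, miR-46-5p at 253 RPM, miR-71-5p at 207 RPM, miR-56-5p at 194 RPM and let-7-3p at 157 RPM. The low ratios came from hairpins of different abundance: miR-236-5p was 0.0264% of its partner, the lowest of the minor arms with at least 1 RPM, followed by miR-788-3p at 0.0834%, miR-57-3p at 0.146%, miR-2-5p at 0.155% and miR-54-5p at 0.159%. At the other end were miR-230-5p at 97.5%, miR-5592-5p at 97.0%, miR-71-5p at 84.4%, miR-259-3p at 72.3% and miR-2214-5p at 62.6%. Both miR-5592 arms are listed in repeated identical entries that were summed, with fractional reads in most libraries, so their levels are uncertain. The 5p and 3p minor arms had medians of 1.71% (n = 66) and 1.06% (n = 34). At the border of the rule, the major arms of miR-360, miR-4813 and miR-1020 had 10.8, 12.5 and 12.5 RPM and were kept, and those of miR-787, miR-249 and miR-1820 had 9.56, 9.10 and 8.64 RPM and were not.

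**Figure D1:**
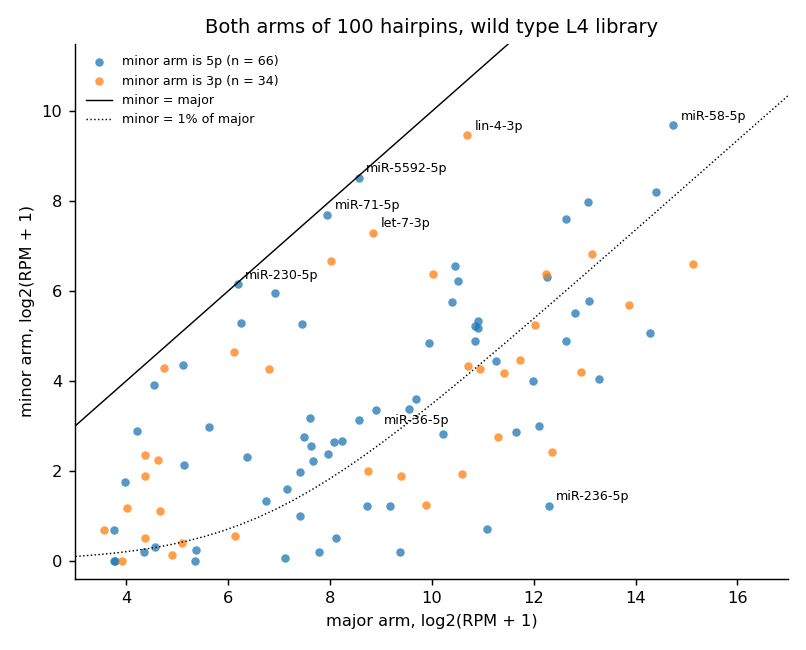
Each point is 1 of the 100 hairpins in the wild type L4 library, with the minor arm on the y axis and the major arm on the x axis, both as log2(RPM + 1). Points on the solid line have equal arms, points on the dotted line have a minor arm of 1% of the major arm, and miR-230-5p, miR-5592-5p and miR-71-5p lie close to the solid line.

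The name minor did not hold in every library: 11 members exceeded their major arm in at least 1 of the other libraries. Both miR-2214-5p and miR-230-5p did so in 15 libraries, miR-85-3p in 12, miR-71-5p in 9 and miR-1-3p in 8, and these 5 would have been the major arm had the 3 wild type adults chosen. In wild type adults 1 to 3, miR-71-5p had 585, 226 and 909 RPM, and miR-71-3p had 243, 485 and 319 RPM. The muscle miRNA miR-1-3p had 65.7, 7.40 and 174 RPM there, against 24.6, 11.1 and 33.7 RPM for miR-1-5p. Wild type adult 2 was thus the low library for both and the only wild type adult in which they stayed below their partners. For miR-85-3p the wild type adults had 63.5, 11.7 and 121 RPM and the wild type L4 library 4.14 RPM. The remaining 6 that crossed were miR-1829a-5p, miR-259-3p and miR-87-5p in 3 libraries each, and let-7-3p, lin-4-3p and miR-63-5p in 1 each. For let-7-3p and lin-4-3p that library was alg-1(gk214).

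Summed over the 100 hairpins, minor arms made up 5.63% of the reads on both arms in alg-1(gk214) (Wilson 95% interval 5.56 to 5.71) and 2.45% in alg-2(ok304) (2.40 to 2.50), against 1.86% in wild type adult 2 (1.81 to 1.91). In alg-5(tm1163) they made up 2.27% (2.24 to 2.29), against 2.44% in wild type adult 3 (2.41 to 2.46), and in alg-5(ram2) L4 larvae 1.64% (1.63 to 1.65), against 1.78% in wild type L4 larvae (1.76 to 1.79). Wild type adult 1 had 1.88%. All 5 immunoprecipitates had a lower share than their inputs: 1.33% against 1.98% for HA::ALG-1, 0.563% against 2.30% for HA::ALG-2, 0.987% against 3.28% for ALG-1::HA::ALG-2, 2.49% against 2.88% for HA::ALG-5, and 0.888% against 1.76% for GFP::ALG-5. Counting error is all that these intervals cover, as no molecular identifiers were used. The share is a score over chosen members and was not tested. A few abundant hairpins carry much of each sum, so the ratio of each hairpin follows.

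**Figure D2:**
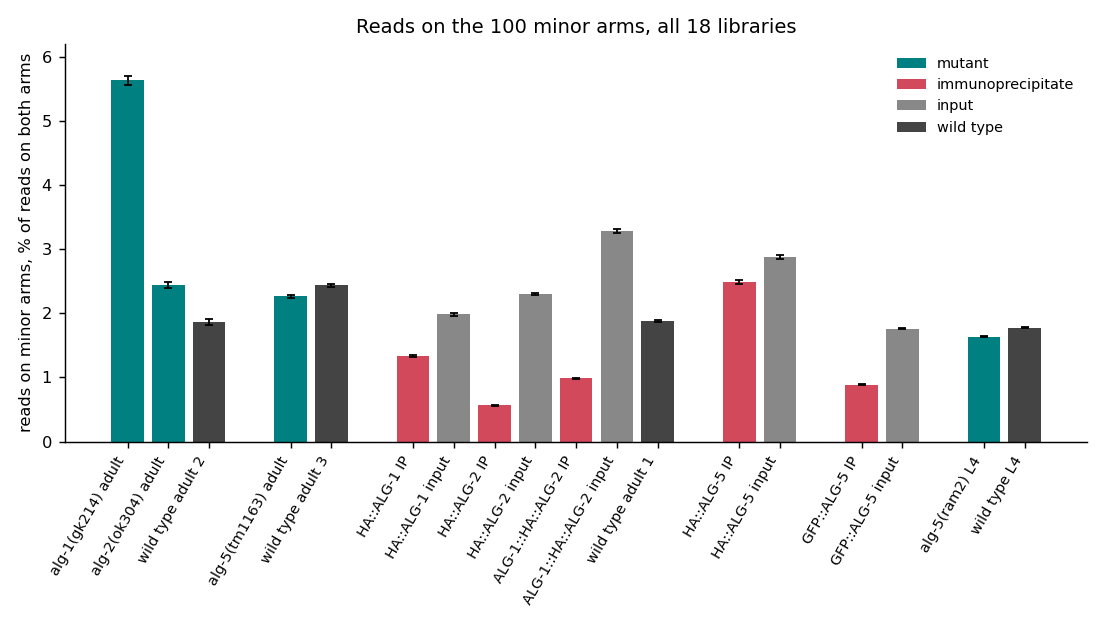
Bars give the reads on the 100 minor arms as a percent of the reads on both arms in each of the 18 libraries, grouped by experiment and line, with Wilson 95% intervals. The highest bar is alg-1(gk214) at 5.63%, and each immunoprecipitate (IP) is below its input.

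The ratio is given as log2 of minor over major RPM with 1 RPM added to each. It thus needs no scaling between libraries, except for low arms, where the added RPM weighs. The added RPM draws low arms together, and where the minor arm is barely detected the ratio mostly follows the major arm. Of the 100 minor arms, 74 passed the filter (a mean of at least 1 RPM on both arms over the 6 adult libraries), among 77 hairpins tested. In alg-1(gk214) the ratio was a median of 0.85 higher than in wild type adult 2. It was more than 2-fold higher for 35 of the 74 and more than 2-fold lower for 6, where 46.8% and 7.79% of all 77 hairpins passed the same limits. Wild type libraries differed among themselves too: 44.2% of the 77 hairpins were past 2-fold in either direction between wild type adults 2 and 1, and 19.5% between 3 and 1, yet the members' medians were 0.02 and 0.13. Of the 35 that were higher in alg-1(gk214), the minor arm itself was more than 2-fold higher for 20 and the major arm more than 2-fold lower for 17, with 5 in both classes and 3 in neither.

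In alg-1(gk214) both measured minor arms of the lin-4 family had high ratios relative to wild type adult 2, and those of the let-7 family were mixed. Reads of lin-4-3p stood at 1679 RPM in alg-1(gk214), against 229 RPM in wild type adult 2 and 57.0 and 57.1 RPM in wild type adults 1 and 3. Its partner lin-4-5p had 1368 RPM in alg-1(gk214), against 2374 RPM in wild type adult 2 and 615 and 525 RPM in the others. The minor arm thus held 55.1% of the lin-4 reads in alg-1(gk214) (Wilson 95% interval 54.1 to 56.1), against 8.48%, 8.81% and 9.80% in wild type adults 1 to 3, and the mutant lay above all 3. Relative to wild type adult 2 the ratio was 3.66 higher, and against all 3 wild type adults it rose by 3.61 on the log2 scale (SE 0.47, limma adjusted p = 0.0402). In the same family, miR-237-3p was at 51.7 RPM in alg-1(gk214), against 3.70 RPM in wild type adult 2, a ratio 4.10 higher, and did not pass the test (limma adjusted p = 0.166).

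For let-7 the result depended on the wild type library. There were 172 RPM of let-7-3p and 36.8 RPM of let-7-5p in alg-1(gk214), so that the minor arm was 467% of the major. In wild type adults 1 to 3, let-7-3p had 1.39, 3.70 and 1.31 RPM, and let-7-5p had 321, 30.2 and 535 RPM. The ratio was 4.93 higher than in wild type adult 2, and 8.08 higher than in all 3 wild type adults (SE 2.26, limma adjusted p = 0.155), which differ in let-7-5p between experiments. Between wild type adults 2 and 1 alone its ratio differed by 4.34. A second member of the family, miR-84-3p, had 12.0 RPM in alg-1(gk214), against 1.23 RPM in wild type adult 2, where 3 reads are 1.85 RPM, with 15.6 RPM against 25.3 RPM for miR-84-5p, and its ratio did not pass the test (limma adjusted p = 0.131 over all wild type). Within the experiment the ratio of miR-48-3p, also of the let-7 family, differed by 0.04, and that of miR-241-5p by -2.61, the lowest of the 74 members. The minor arm of miR-241 is 5p, while those of let-7, miR-48 and miR-84 are 3p, so its ratio sets the arms the other way round. Of the 4 measured members of the family, 2 were more than 2-fold higher and 1 more than 2-fold lower.

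All 4 minor arms of the mir-58 family were more than 2-fold higher in ratio in alg-1(gk214) than in wild type adult 2, by 1.20 to 4.30. The level of miR-58-5p was 1252 RPM in alg-1(gk214), against 344, 276 and 362 RPM in wild type adults 1 to 3, and that of miR-58-3p was 7741 RPM, against 16596, 11454 and 19779 RPM. The mutant was outside the wild type range on both arms. Its ratio was 2.75 higher within the experiment and rose by 2.95 over all wild type adults (SE 0.46, limma adjusted p = 0.0456). For miR-82-5p the values were 144 RPM in alg-1(gk214) and 12.1, 28.4 and 16.9 RPM in wild type, with 1576 RPM of miR-82-3p in the mutant and 6953, 6316 and 6512 RPM in wild type. The ratio of miR-82-5p was 4.30 higher within the experiment and rose by 4.99 over all wild type (SE 0.68, limma adjusted p = 0.0402), though miR-82-3p and miR-81-3p have fractional reads in 11 libraries and may share them.

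These 3 members, lin-4-3p, miR-82-5p and miR-58-5p, were all that passed the test for alg-1(gk214) (3.9% of the 77 hairpins, each of them a member). With 1 mutant library the test assumes that it varies like wild type, and edgeR's quasi-likelihood test on the recovered reads called 0. The number of calls was 0 without wild type adult 1, 0 without wild type adult 3 and 7 without wild type adult 2. The ratios of lin-4-3p, miR-82-5p and miR-58-5p stayed within 3.55 to 3.68, 4.68 to 5.33 and 2.85 to 3.05 in all 9 alternatives run, edgeR included. Outside the listed families, miR-235-5p, partner of a miRNA of the miR-92 class, was singled out after its values were seen: it had 148 RPM in alg-1(gk214) against 51.2 RPM in wild type adult 2, and miR-235-3p had 642 RPM against 3266 RPM. Its ratio was 3.86 higher within the experiment (limma adjusted p = 0.0942 over all wild type).

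**Figure D3:**
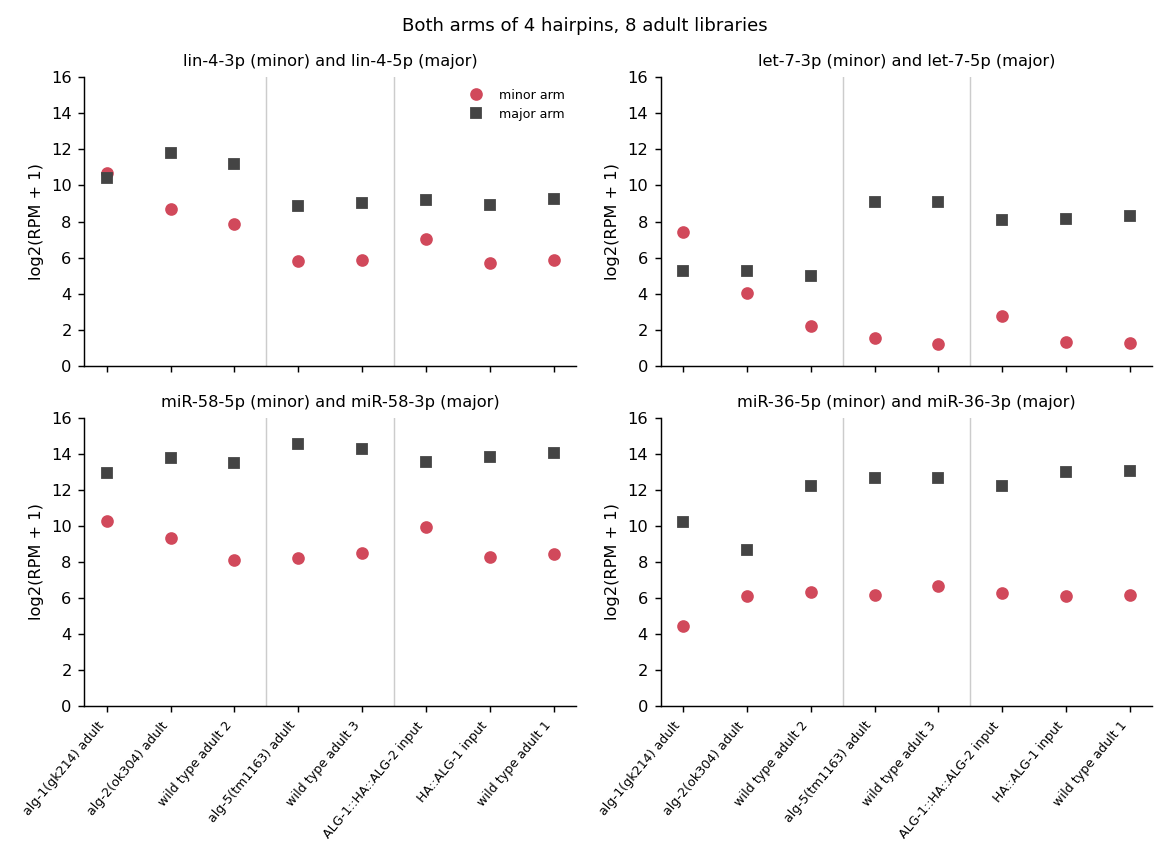
Minor arm (circles) and major arm (squares) of lin-4, let-7, miR-58 and miR-36 in 8 adult libraries, as log2(RPM + 1), with grey lines between experiments 2, 3 and 1. The minor arms of lin-4 and let-7 are above the major arms in alg-1(gk214), and miR-36-3p is lowest in alg-2(ok304) while miR-36-5p is not.

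Other families were less uniform in alg-1(gk214). In the mir-51 family, of which 6 minor arms were measured, all 6 ratios were higher than in wild type adult 2, 3 of them by more than 2-fold, with a median of 1.14. In the mir-64 cluster 3 of 4 were more than 2-fold higher (median 1.25), and miR-46-5p and miR-47-5p were 1.19 and 1.91 higher. The mir-35 family differed little, with 7 measured ratios between -0.25 and 1.14 and a median of 0.15. Its minor and major arms were both low in the mutant, at sums of 121 and 6258 RPM in alg-1(gk214), against 517 and 29496 RPM in wild type adult 2. Among the lower ratios were those of miR-85-3p (-2.17), miR-71-5p (-2.001) and miR-1-3p (-1.41), arms that exceed their partners in most wild type adults.

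The inputs of the tagged lines, sequenced in experiments 1 and 3, differed from wild type to unequal degrees. The ALG-1::HA::ALG-2 input comes from alg-1(gk214) animals that carry that transgene, and can be set against the HA::ALG-1 input, from the same mutant with an alg-1 transgene, and against wild type adult 1. The ratio was a median of 0.57 higher in the ALG-1::HA::ALG-2 input than in wild type adult 1, past 2-fold upward for 20 of 74 members (27.3% of the 77 hairpins) and downward for 4 (5.19%). In the HA::ALG-1 input it was a median of 0.13 higher than in wild type adult 1, past 2-fold upward for 3 members (3.9%) and downward for 1 (1.3%). Inputs without alg-1(gk214) also differed from wild type. The HA::ALG-5 input was a median of 0.29 higher than wild type adult 3, past 2-fold upward for 15 members (20.8%) and downward for 6 (7.79%). The HA::ALG-2 input was a median of 0.17 higher than wild type adult 1, past 2-fold upward for 8 members (10.4%) and downward for 2 (2.6%). All 4 members of the mir-58 family were past 2-fold in the ALG-1::HA::ALG-2 input, by 1.03 to 3.14, led by miR-82-5p at 65.4 RPM there, against 16.4 RPM in the HA::ALG-1 input and 12.1 RPM in wild type adult 1. That family differed from wild type by 0.01 to 0.82 in the HA::ALG-1 input, by -0.49 to 1.52 in the HA::ALG-2 input (1 of 4 past 2-fold) and by 0.29 to 1.77 in the HA::ALG-5 input (2 of 4 past 2-fold). The level of lin-4-3p was 131 RPM in the ALG-1::HA::ALG-2 input, against 50.8 RPM in the HA::ALG-1 input and 57.0 RPM in wild type adult 1, with lin-4-5p at 588, 489 and 615 RPM in the same order. In the ALG-1::HA::ALG-2 input the ratios of lin-4-3p, miR-237-3p and let-7-3p were 1.25, 2.46 and 1.74 higher than in wild type adult 1. In the HA::ALG-2 input, which does not carry alg-1(gk214), they were 0.06, 1.18 and 0.40 higher than in wild type adult 1, and in the HA::ALG-5 input 0.24, 0.29 and 1.65 higher than in wild type adult 3. In the ALG-1::HA::ALG-2 input let-7-5p stood at 273 RPM, against 321 RPM in wild type adult 1. The low let-7-5p of experiment 2 was thus not there. With 1 library each, these differences have no test.

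**Figure D4:**
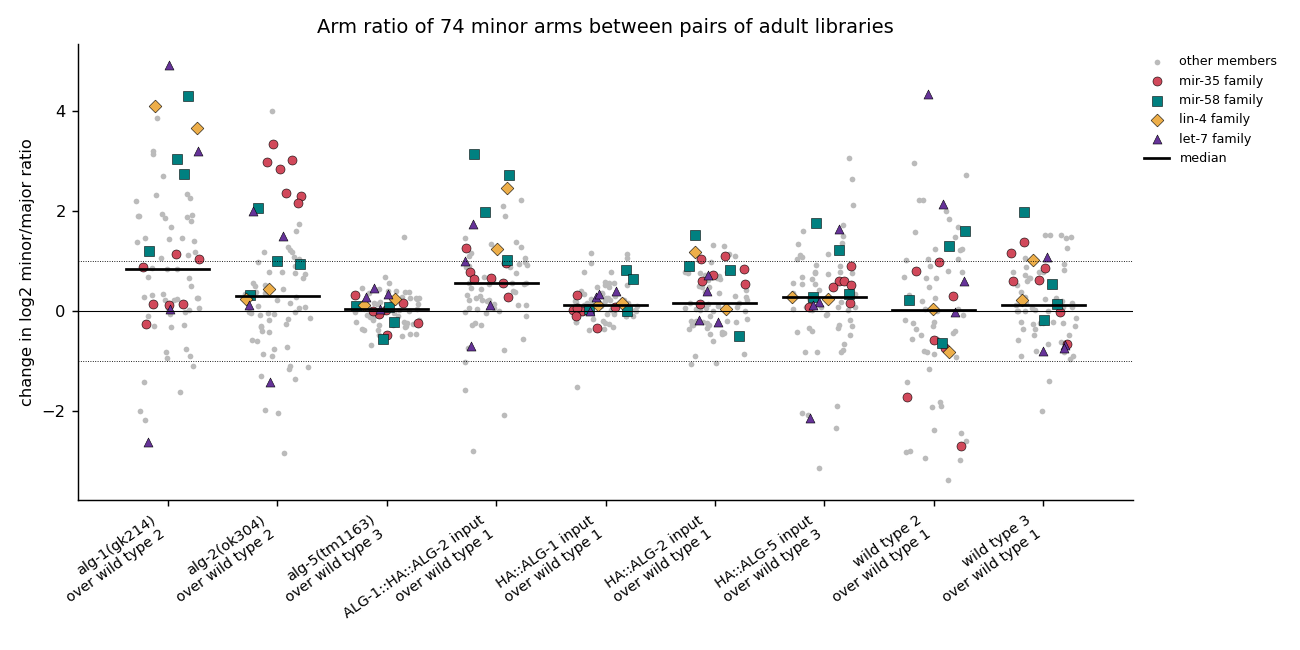
Each point is the change in log2 minor/major ratio of 1 of 74 minor arms between 2 adult libraries, with black bars for medians and dotted lines at 2-fold. The mir-58 and lin-4 families lie above 0 in alg-1(gk214), in alg-2(ok304) and in the inputs, except for part of the mir-58 family in the HA::ALG-2 input (3 of 4 above 0). Their medians are highest in alg-1(gk214). The median of the mir-35 family is highest in alg-2(ok304). The pairs of wild type libraries at the right show the spread without a mutation.

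In alg-2(ok304) the ratio was high throughout the measured mir-35 family, which acts in embryos and in fertility. All 7 measured members of that family had a ratio more than 2-fold higher than in wild type adult 2, by 2.17 to 3.34, against a median of 0.31 over the 74 members, of which 20 were past 2-fold upward and 9 downward (26.0% and 11.7% of the 77 hairpins). The guide arm differed more than the minor arm: the family's minor arms summed to 368 RPM in alg-2(ok304), against 517 RPM in wild type adult 2, and its major arms to 3287 RPM against 29496 RPM. Reads of miR-36-5p were at 67.6 RPM in alg-2(ok304), against 71.4, 79.5 and 100.3 RPM in wild type adults 1 to 3, a level just under their range. Its partner miR-36-3p had 402 RPM in alg-2(ok304), against 8461, 4768 and 6512 RPM. The minor arm was thus 16.8% of the major in alg-2(ok304), against 0.844%, 1.67% and 1.54% in wild type.

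No hairpin passed the test for alg-2(ok304) by limma or by edgeR. The smallest adjusted p was that of miR-36-5p, 0.186 by limma, for a ratio 3.70 higher than in all wild type adults (SE 0.62). The ratios of miR-40-5p and miR-41-5p were 2.98 and 2.84 higher than in wild type adult 2 but 1.38 and 1.05 higher than in all 3. The lin-4 family was close to wild type adult 2 in alg-2(ok304): lin-4-3p was 0.25 and miR-237-3p 0.44 higher in ratio than in wild type adult 2. The mir-58 family was 0.34 to 2.06 higher, with 2 of 4 past 2-fold. The difference between these mutants was not tested.

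In adults with alg-5(tm1163) the minor arms were close to wild type. Ratios in alg-5(tm1163) were a median of 0.05 higher than in wild type adult 3, with quartiles of -0.21 and 0.26, and 1 of 74 members was past 2-fold (1.3% of the 77 hairpins). That member was miR-250-5p, and its level was near that of wild type while its major arm was lower. Reads of miR-250-5p were 54.7 RPM in alg-5(tm1163) and 55.6, 65.3 and 60.2 RPM in wild type adults 1 to 3, and miR-250-3p had 385 RPM in alg-5(tm1163), against 1181, 798 and 1194 RPM. The mutant lay below all wild type adults in miR-250-3p, and its ratio was 1.49 higher than in wild type adult 3. Neither limma nor edgeR called any hairpin for alg-5(tm1163), and limma gave 0 hairpins at an unadjusted p under 0.05.

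The same hairpin led in the L4 pair, which used the library that chose the arms and is a description only. In alg-5(ram2) miR-250-5p had 172 RPM and miR-250-3p 305 RPM, against 93.0 and 1413 RPM in wild type L4 larvae, a ratio of 56.4% against 6.58%. Its log2 ratio was 3.09 higher, the highest of 81 members, and the median of these was 0.03. Past 2-fold were 13 members upward and 14 downward (15.5% and 16.7% of 84 hairpins). Ratios of miR-74-5p, miR-65-3p and miR-79-5p were 1.98, 1.93 and 1.79 higher, and those of miR-52-3p and miR-71-5p were lower, with differences of -2.16 and -1.72. Both alg-5 alleles thus had a low level of miR-250-3p, in different stages and experiments, with no replicate of either.

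Enrichment in an immunoprecipitate is the log2 ratio of its RPM to that of its input. Of the 100 minor arms 76 passed the filter over the 10 libraries (a mean of at least 1 RPM on both arms), among 82 hairpins and 226 arms tested. This filter can pass an arm through 1 high immunoprecipitate, so the counts below cover those that passed and not the whole set. All arms together had median enrichments of 1.29 for HA::ALG-1, 0.46 for HA::ALG-2, 1.21 for ALG-1::HA::ALG-2, -0.37 for HA::ALG-5 and -1.95 for GFP::ALG-5. The minor arms had medians of 0.79, -0.37, -0.44, -0.76 and -2.08 in the same order, and the major arms of all 100 hairpins 1.82, 0.93, 2.18, -0.26 and -1.99. By these medians minor arms were below major arms in each immunoprecipitate, most widely for ALG-1::HA::ALG-2 and least for GFP::ALG-5. In GFP::ALG-5, 26 of the 100 minor arms were not detected in the immunoprecipitate, against 5 in the input. The added 1 RPM sets the values of such arms. By pooled share HA::ALG-5 differed least from input, at 2.49% against 2.88%, with 0.888% against 1.76% for GFP::ALG-5. Relative to input, the median difference in ratio was -1.02 for HA::ALG-1, -1.20 for HA::ALG-2, -2.31 for ALG-1::HA::ALG-2, -0.56 for HA::ALG-5 and -0.22 for GFP::ALG-5. It was lower in the immunoprecipitate for 61, 61, 67, 54 and 43 of the 76 members in that order.

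Past the 2-fold limit, the ratio was lower in the HA::ALG-1 immunoprecipitate for 39 of the 76 members (50.0% of the 82 hairpins), in HA::ALG-2 for 46 (58.5%), in ALG-1::HA::ALG-2 for 55 (69.5%), in HA::ALG-5 for 28 (37.8%) and in GFP::ALG-5 for 19 (26.8%). Higher ratios past 2-fold were seen for 2, 5, 3, 8 and 10 members (3.66%, 7.32%, 4.88%, 9.76% and 13.4% of hairpins). Of the 10 in GFP::ALG-5, the minor arm was more than 2-fold higher for 4 and the major arm more than 2-fold lower for 5, with 1 in neither class. With the 5 constructs as the replicates, 0 of 82 hairpins passed (lowest limma adjusted p 0.0511). An unadjusted limma p under 0.05 was found for 34 of the 82 hairpins, 33 of them members, and edgeR called 3. Without GFP::ALG-5 limma called 23 hairpins and without HA::ALG-5 it called 11. Of single arms, 7 of 226 passed (3.1%), of which 1 is a minor arm: miR-73-5p fell by 2.04 in the immunoprecipitates relative to input (SE 0.60, limma adjusted p = 0.0247), a call that held in 5 of 12 alternatives. Its level was 0.718, 2.46, 1.89, 3.94 and 0 RPM (3 reads are 0.718 RPM in the last) in the immunoprecipitates of HA::ALG-1, HA::ALG-2, the fusion ALG-1::HA::ALG-2, HA::ALG-5 and GFP::ALG-5, against 7.92, 11.1, 9.59, 13.1 and 5.18 RPM in their inputs, so it was lower in all 5. Leaving out HA::ALG-2, the fusion ALG-1::HA::ALG-2, HA::ALG-5 or GFP::ALG-5 gave 1, 4, 2 or 17 called arms. The number of arms called depends on scaling: with RPM of miRNA reads alone it was 82. That scaling adds 0.23 to 1.45 on the log2 scale to the immunoprecipitates and 1.69 to 2.94 to the inputs, because miRNAs made up 36.7% to 85.2% of reads in immunoprecipitates and 13.0% to 31.0% in inputs, so the sign of the enrichment medians above depends on it. The gap between arms and the ratio do not, except for low arms, where the weight of the added 1 RPM changes with the scale.

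**Figure D5:**
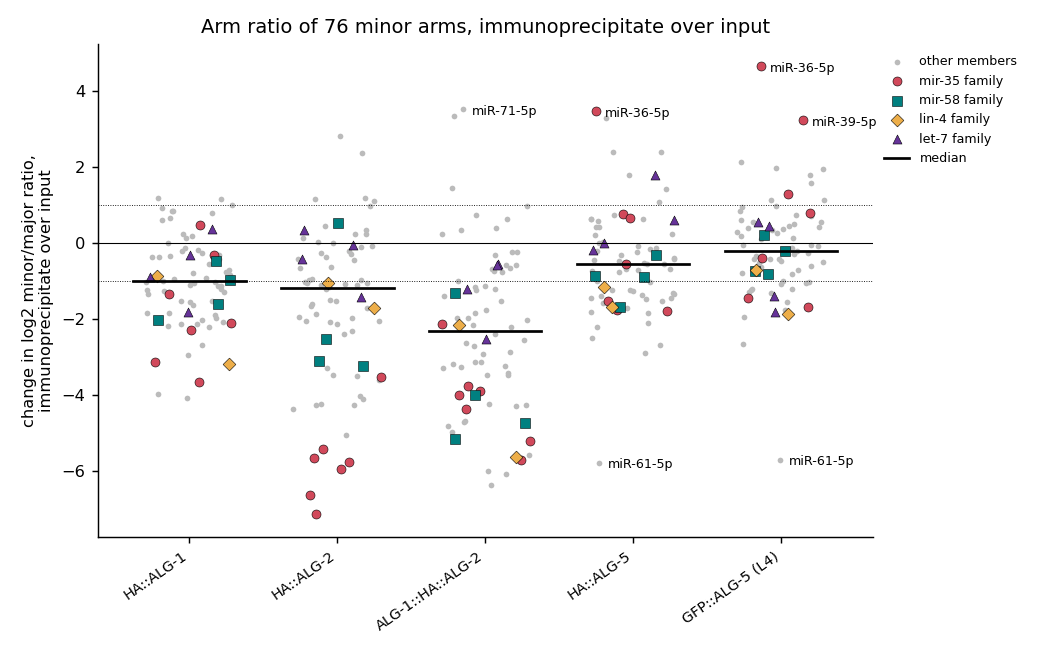
Each point is 1 of 76 minor arms, and the y axis is the change in its log2 minor/major ratio in the immunoprecipitate over the input of the same line, with black bars for medians and dotted lines at 2-fold. The mir-35 family lies lowest in HA::ALG-2, miR-36-5p is highest in both ALG-5 immunoprecipitates and miR-61-5p is lowest in both.

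The ratio of lin-4-3p was lower than input in all 5 immunoprecipitates, with differences of -3.19 for HA::ALG-1, -1.71 for HA::ALG-2, -5.65 for ALG-1::HA::ALG-2, -1.16 for HA::ALG-5 and -1.87 for GFP::ALG-5. In the mir-58 family, 2 of 4 were past 2-fold lower in HA::ALG-1 (median -1.30), 3 of 4 in HA::ALG-2 (median -2.82), 4 of 4 in ALG-1::HA::ALG-2 (median -4.38), 1 of 4 in HA::ALG-5 (median -0.89) and 0 of 4 in GFP::ALG-5 (median -0.48). The level of lin-4-3p was 17.2 RPM in the HA::ALG-1 immunoprecipitate against 50.8 RPM in its input, while lin-4-5p had 1573 RPM against 489 RPM. In ALG-1::HA::ALG-2, lin-4-3p was at 10.8 RPM in the immunoprecipitate against 131 RPM in the input, with 2653 RPM against 588 RPM for lin-4-5p. Thus lin-4-3p was lower and lin-4-5p higher than input in both. All 4 mir-58 family ratios were more than 2-fold lower in the ALG-1::HA::ALG-2 immunoprecipitate (-5.16 to -1.33), where miR-58-5p had 379 RPM against 996 RPM in the input and miR-58-3p had 74848 RPM against 12163 RPM. Arms that exceed their partners in most wild type adults were mixed in these immunoprecipitates. In HA::ALG-1, HA::ALG-2 and ALG-1::HA::ALG-2, the ratio was higher for miR-71-5p by 1.16, 2.36 and 3.52 and for miR-1-3p by 1.17, 0.24 and 1.45. For miR-85-3p the differences were -1.30, 2.81 and 3.33 in that order. Those of miR-2214-5p were -1.52, -1.60 and -0.58, and those of miR-230-5p -1.53, 0.35 and 0.38. In ALG-1::HA::ALG-2, miR-71-5p had 2133 RPM in the immunoprecipitate against 329.8 RPM in the input, and miR-71-3p had 324 RPM against 575 RPM.

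The mir-35 family had different ratios in the immunoprecipitates of different Argonautes. In HA::ALG-2, its 3p guides summed to 447930 RPM in the immunoprecipitate against 25726 RPM in the input, while its minor arms summed to 537 RPM against 757 RPM. All 7 measured ratios were lower there, with changes of -7.14 to -3.54. In ALG-1::HA::ALG-2 all 7 were lower as well, with changes of -5.73 to -2.13 and 26299 RPM of guides in the immunoprecipitate against 22587 RPM in the input, and 67.3 RPM of minor arms against 683 RPM. HA::ALG-1 gave changes of -3.67 to 0.46. In HA::ALG-5 the changes ran from -1.80 to 3.45, and in GFP::ALG-5 from -1.70 to 4.64, and the family's minor arms summed to 2733 RPM in the HA::ALG-5 immunoprecipitate against 1313 RPM in its input and to 746 RPM against 32.6 RPM in GFP::ALG-5.

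Most of that sum was miR-36-5p. Its level was 1555 RPM in the HA::ALG-5 immunoprecipitate against 117 RPM in its input, and 672 RPM against 7.30 RPM in GFP::ALG-5. In the immunoprecipitates of the HA::ALG-1 line, the HA::ALG-2 line and the ALG-1::HA::ALG-2 line it was 17.1, 30.0 and 4.68 RPM, against 68.9, 78.2 and 77.7 RPM in the inputs. It was thus higher than input with both ALG-5 constructs and lower with all 3 others. The partner miR-36-3p differed less from input with ALG-5, at 8569 RPM against 7109 RPM in HA::ALG-5 and 1109.9 RPM against 341 RPM in GFP::ALG-5. As a share of the hairpin's reads, miR-36-5p was 15.4% in the HA::ALG-5 immunoprecipitate (Wilson 95% interval 14.9 to 15.8) against 1.62% in its input, and 37.7% (36.6 to 38.8) against 2.10% in GFP::ALG-5. Its enrichment differed between the ALG-5 constructs and the ALG-1 and ALG-2 constructs by 7.40 (SE 1.34, limma adjusted p = 3e-06), and its ratio change by 7.86 (SE 1.16, limma adjusted p = 0.000489). The enrichment p rests on a spread shared over all arms of like level, in a fit with 3 residual degrees of freedom, and not on the arm's own spread. The call on the ratio of miR-36-5p held in all 10 alternatives run, and that on its enrichment in 11 of 12. A relative, miR-39-5p, was also above input in GFP::ALG-5, with 54.6 RPM in the immunoprecipitate against 4.85 RPM in the input, but had 722 RPM against 191 RPM in HA::ALG-1 as well.

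In the test of a different ratio change between the ALG-5 constructs and the ALG-1 and ALG-2 constructs, 11 of 82 hairpins passed (13.4%), and 9 of them are members. The ratio change was higher with ALG-5 for 8 members: miR-36-5p, miR-38-5p by 5.28 (SE 1.24, adjusted p = 0.0167), miR-72-3p by 5.10, miR-35-5p by 4.86, miR-41-5p by 3.60, miR-73-5p by 3.27, miR-239a-3p by 3.06 and miR-244-3p by 2.85, with limma adjusted p of 0.00483 to 0.0473 for those after miR-38-5p. Apart from miR-36-5p, the calls held in 8 of 10 alternatives for miR-72-3p, 7 of 10 for miR-38-5p, 4 of 10 for miR-35-5p, 2 of 10 for miR-41-5p, 3 of 9 for miR-73-5p, and 2 of 9 for both miR-239a-3p and miR-244-3p. Those of miR-41-5p, miR-73-5p, miR-239a-3p and miR-244-3p were lost with 0.1 RPM added and by edgeR, and that of miR-35-5p with 0.1 RPM added. No miR-73-5p was detected in the GFP::ALG-5 immunoprecipitate, so its ratio there rests on the added RPM. For 5 of these 8, miR-38-5p, miR-41-5p, miR-73-5p, miR-239a-3p and miR-244-3p, the minor arm itself was below input in both ALG-5 immunoprecipitates, with enrichments of -2.01 to -0.01 in HA::ALG-5 and -2.63 to -0.69 in GFP::ALG-5. That of miR-35-5p was 0.93 and 0.54. The level of miR-38-5p was 99.8 RPM in the HA::ALG-5 immunoprecipitate against 217 RPM in its input. The difference in its ratio was -3.13, -6.65 and -5.73 in HA::ALG-1, HA::ALG-2 and ALG-1::HA::ALG-2. For miR-72-3p there was enrichment with ALG-5: 846 RPM in the immunoprecipitate against 151 RPM in the input of HA::ALG-5 and 1771 RPM against 137 RPM of GFP::ALG-5. In HA::ALG-1, HA::ALG-2 and ALG-1::HA::ALG-2 its level was 37.4, 22.1 and 19.2 RPM against 91.3, 111 and 174 RPM. The ALG-1 and ALG-2 constructs were all in experiment 1, HA::ALG-5 in experiment 3 and GFP::ALG-5 in experiment 4, so the Argonaute and the experiment cannot be told apart in this comparison, nor can tag and stage for GFP::ALG-5. There were 27 calls without HA::ALG-1, 5 without HA::ALG-2, 4 without ALG-1::HA::ALG-2, 5 without HA::ALG-5 and 2 without GFP::ALG-5.

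The member whose ratio change was lower with ALG-5 was miR-61-5p, with a difference of -4.15 (SE 0.99, limma adjusted p = 0.0167), a call that held in 7 of 10 alternatives. Its partner miR-61-3p, a miRNA known from vulval patterning, took 292786 RPM in the GFP::ALG-5 immunoprecipitate against 1955 RPM in its input, and 46868 RPM against 1002 RPM in HA::ALG-5. Levels of miR-61-5p were 204 RPM against 70.6 RPM in GFP::ALG-5 and 82.7 RPM against 97.5 RPM in HA::ALG-5, so it was above input in GFP::ALG-5 and below it in HA::ALG-5. The change in ratio was -5.71 in GFP::ALG-5 and -5.78 in HA::ALG-5, and -1.90, -1.65 and -1.23 in HA::ALG-1, HA::ALG-2 and ALG-1::HA::ALG-2.

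For some other hairpins both arms were above input with ALG-5. In GFP::ALG-5, miR-250-3p had 244108 RPM in the immunoprecipitate against 1695 RPM in the input, and miR-250-5p had 2498 RPM against 108 RPM. In HA::ALG-5 these were 91448 RPM against 902 RPM for miR-250-3p and 1517 RPM against 48.2 RPM for miR-250-5p. Enrichment of miR-250-5p was higher with the ALG-5 constructs than with the ALG-1 and ALG-2 constructs by 5.48 (SE 1.35, limma adjusted p = 0.00179), although the difference in its ratio to miR-250-3p was -1.72 in HA::ALG-5 and -2.65 in GFP::ALG-5. For miR-51-3p, of the mir-51 family, the immunoprecipitates had 1204 RPM (HA::ALG-5) and 701 RPM (GFP::ALG-5), against 84.2 and 13.2 RPM in the inputs, and its enrichment was higher with ALG-5 by 4.71 (SE 1.35, limma adjusted p = 0.0113). In this test of single arms 23 of 226 passed (10.2%), 6 of them members. Without HA::ALG-1, HA::ALG-2 or ALG-1::HA::ALG-2 there were 6, 86 or 5 called arms. Leaving out either ALG-5 construct changed the count as well. The remaining called members were miR-36-5p, miR-72-3p with 5.30 higher enrichment (limma adjusted p = 0.00279), and 2 that were lower with ALG-5, miR-65-3p with a difference of -4.23 (limma adjusted p = 0.0315) and miR-237-3p with one of -3.02 (limma adjusted p = 0.0419). Of 12 alternatives, these enrichment calls held in 9 for miR-250-5p and miR-72-3p, 8 for miR-51-3p, 5 for miR-65-3p and 4 for miR-237-3p. The median difference over all 226 arms in this test was -1.999, so most arms were lower with ALG-5 on this scale. The calls of miR-65-3p and miR-237-3p were both lost with RPM of miRNA reads, with TMM factors and by edgeR. A loss particular to these arms cannot be told from that shared shift. The levels of miR-65-3p were 27.6 RPM in the HA::ALG-5 immunoprecipitate and 19.1 RPM in that of GFP::ALG-5, against 40.9 and 151 RPM in the inputs, while HA::ALG-1 had 220.3 RPM against 26.8 RPM.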

How the data were processed

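The authors deposited miRNA and 21U RNA values as RPM and mRNA values as FPKM, 1 column per library. Per the labels' protocols, small RNA of 18 to 28 nt was gel purified, and mRNA was depleted of ribosomal RNA. The submitters' processing notes name Cuffdiff for the small RNA samples, and Cuffdiff with TopHat2, HTSeq, DESeq2 and Trimmomatic 0.35 for the mRNA samples. The aligner and genome build of the small RNA data are not given in the sources used here. Values of the CSR-1 and Mutator targets were not used.

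Repeated entries of a name were summed, giving 368 names; the 7 repeated names have identical values, and the arms of miR-5592 are the only members among them. The minor arms, gene lists and tests were chosen with earlier results of these data known. The ratio is log2((minor RPM + 1)/(major RPM + 1)), and enrichment is log2((immunoprecipitate RPM + 1)/(input RPM + 1)). Enrichment thus understates changes of low arms. The ratio of a barely detected minor arm mostly follows its major arm. Arms under a mean of 1 RPM over the libraries of a test were left out. Each test was a limma fit (3.58.1, R 4.3.3) over all arms or hairpins, two-sided, with an empirical Bayes spread and Benjamini-Hochberg adjustment at 0.05: adults by genotype, 6 libraries in 1 fit, and immunoprecipitate over input with construct as a block. In both enrichment fits the prior degrees of freedom were infinite, so each arm was given the common spread at its level. Each mutant has 1 library, assumed to vary like wild type. Nothing in the labels says that replicates are separate cultures, so the spread may be technical. A fit with experiment as a term has no residual degrees of freedom, so values within an experiment stand beside the pooled ones. For the alternative with edgeR (4.0.16), reads were recovered from the RPM steps. In all 18 libraries 99.1% to 99.6% of 21U values were whole within 0.02 of a read, and 93.6% to 97.6% of miRNA values. The step was itself chosen to make most 21U values whole. The remaining values were rounded. The scripts were tested on simulated data. Depth ran from 1622092 to 24518714 reads, so that 3 reads, the limit that a count of 0 allows, are 0.122 to 1.85 RPM. Named arms are the 8 highest, the extremes of the ratio, those past a test's threshold, those above their major arm elsewhere, and listed families. Other alternatives changed the pseudocount, the filter, the scaling, and the libraries included.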

Additional observations from a re-analysis of the deposited data

Results flagged for a closer look

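The response to immunoprecipitation differed between the ALG-5 constructs and the ALG-1 and ALG-2 constructs for 6 minor arms by enrichment and for 9 by the ratio to the major arm, by the limma test of that difference. By enrichment, the difference on the log2 scale was 7.40 for miR-36-5p, 5.48 for miR-250-5p, 5.30 for miR-72-3p, 4.71 for miR-51-3p, -3.02 for miR-237-3p and -4.23 for miR-65-3p. Its median over all 226 arms was -1.999, and the calls of miR-237-3p and miR-65-3p were lost with RPM of miRNA reads and with TMM factors. By ratio, it was 7.86 for miR-36-5p, 5.28 for miR-38-5p, 5.10 for miR-72-3p, 4.86 for miR-35-5p, 3.60 for miR-41-5p, 3.27 for miR-73-5p, 3.06 for miR-239a-3p, 2.85 for miR-244-3p and -4.15 for miR-61-5p. The ratio calls of miR-41-5p, miR-73-5p, miR-239a-3p and miR-244-3p were lost with 0.1 RPM added and by edgeR. Both measures name miR-36-5p and miR-72-3p. The ALG-5 side rests on 2 pairs of libraries that differ from each other in tag and stage and come from experiments 3 and 4, while the 3 pairs of the ALG-1 and ALG-2 constructs come from experiment 1, so the Argonaute and the experiment cannot be told apart.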

How the results depend on the processing

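Of 319 values for 31 named results under alternatives, 224 kept their reading, 87 lost the call, 1 gained it, 7 moved and 0 changed sign. The 319 include mutants set against the wild type of their own experiment, which have no test. The 224 include results that were not called to begin with, while only called results could lose a call. For alg-1(gk214) over wild type, 3 hairpins were called, against 5 with 0.1 RPM added, 0 with no filter, 0 by edgeR and 0 to 7 without single wild type libraries. For alg-2(ok304) and alg-5(tm1163), 0 were called under every alternative run. For the ratio in immunoprecipitates over inputs, 0 were called, against 13 with 0.1 RPM added, 10 with a filter at 10 RPM, 3 by edgeR, 16 with no construct block and 0 to 23 without single constructs. For the difference in ratio between ALG-5 and the ALG-1 and ALG-2 constructs, 11 were called, against 5 with 0.1 RPM added, 23 with 5 RPM, 6 with no filter, 5 with a filter at 10 RPM, 6 by edgeR and 2 to 27 without single constructs. For enrichment over input, 7 arms were called, against 0 with no filter, 4 with a filter at 10 RPM, 2 by edgeR, 82 per miRNA read, 13 with TMM factors, 0 with no construct block and 1 to 17 without single constructs. For the difference in enrichment, 23 were called, against 2 with no filter, 10 by edgeR, 11 per miRNA read and 5 to 112 without single constructs. The median log2 ratio in wild type L4 was -5.44, against -5.50 with arms chosen in wild type adults, -5.03 with major arms from 1 RPM and -6.18 from 100 RPM. The cause of these differences was not tested. No paired analysis was possible because each mutant group has 1 small RNA library and shares no more than 1 replicate number with wild type, and the mRNA values were not tested.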
